A study of Mus musculus with 2 samples.

Results

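The insulin-like growth factor (IGF) axis was described in myoblasts of mouse skeletal muscle, precursor cells that can divide or fuse into muscle fibres. The genes read were Igf1, those of the receptors Igf1r, Igf2r and Insr, and that of the adaptor Irs1. Those of the binding proteins Igfbp2, Igfbp3, Igfbp4, Igfbp5 and Igfbp6 were read as well. These 10 genes, of 18193 with a named probe set, were taken whole, with every probe set that the array's annotation gives to them alone, which came to 27 of 45037 probe sets. The groups were 1 culture of Foxj3 knockout (KO) myoblasts and 1 culture of wild-type (WT) myoblasts. Foxj3 encodes a forkhead transcription factor. Both cultures were at passage 3, grown in medium with 20% fetal bovine serum and harvested at 80% confluency, and each was hybridised to 1 Affymetrix Mouse430_2 oligonucleotide array. How the Foxj3 allele was made, the strain, sex and age of the animals and the number of animals behind each culture are not stated by the labels. With 1 array per group there was no replicate and no test, and every ratio describes these 2 cultures.

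IGF1 and IGF2 are secreted growth factors that act through the IGF1 receptor, a tyrosine kinase closely related to the insulin receptor, with which it can form hybrids. The IGF2 receptor, which is also the cation-independent mannose 6-phosphate receptor, takes up IGF2 for degradation in lysosomes. IRS1 is phosphorylated by the IGF1 and insulin receptors and links them to phosphoinositide 3-kinase and AKT. IGF-binding proteins hold IGFs outside the cell and can block or prolong their action. In muscle the axis drives both the proliferation of myoblasts and their differentiation, and Igfbp5 and Igf2 are known to be induced as myoblasts differentiate.

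The deposited values are linear signal intensities, 1 per probe set and array, and their level in one probe set cannot be set against that of another. A probe set was counted as measured where it was over a detection floor of 47.04, the 40th percentile of both arrays together, on at least 1 array. Values under the floor were set to it before the log2 ratio of KO over WT was taken, so a ratio with 1 array under the floor is a bound. Of the 27 probe sets 24 were measured, and 5 of their ratios are bounds. Each gene was represented by its brightest probe set, meaning the one with the highest mean of the 2 log2 values after the floor was set, and a gene was called different at 2-fold.

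The label of the cells was checked against marker lists. All 8 myoblast markers were over the floor on both arrays, with summed signals of 5987 on KO and 6056 on WT and a median log2 ratio of -0.10. Such sums weigh the brightest probe sets most. Of the 8 markers 3 were above 0 and 5 below. Myod1 (1751 on KO, 631 on WT) was at least 2-fold higher in KO, and Des read 1091 on KO and 2024 on WT. The differentiated muscle list had 9 of 11 genes over the floor on the KO array and 11 of 11 on the WT array, a summed signal of 4074 against 18397, a median log2 ratio of -2.67 and 10 genes at least 2-fold lower in KO. Endothelial (2 of 4 on KO, 1 of 4 on WT) and macrophage (2 of 5 on KO, 3 of 5 on WT) markers were partly under the floor. The endothelial list summed to 223 on KO and 203 on WT, and the macrophage list to 579 on KO and 607 on WT. Pecam1, Tek, Ptprc and Cd68 were under the floor on both arrays. Kdr (101 on KO, 110 on WT) was over it on both. So were Csf1r (276 on KO, 171 on WT) and Adgre1 (210 on KO, 313 on WT). Cdh5 was over it on KO alone and Cd14 on WT alone. Of 8 fibroblast markers 5 were over the floor on the KO array and 4 on the WT array, with summed signals of 1191 and 1045, and of 4 adipogenic markers 2 and 3, with summed signals of 385 and 659. Of 3 liver genes whose proteins circulate with IGFs or in serum, Alb read 42.6 on KO and 65.4 on WT, Igfbp1 was below the floor on both, and Igfals, which encodes a subunit of the circulating IGF complex, read 405 on KO and 386 on WT. Foxj3 was lower in KO by its brightest probe set, at 77.3 against 496, and higher by another, at 99.4 against 79.7, so it does not settle the labels. The part of these differences in the IGF values was not tested, and in a bulk culture fewer cells of a type and less RNA per cell cannot be told apart.

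Across the 10 genes the brightest probe sets were slightly higher in KO in most, and few reached 2-fold. Irs1 was the single gene at least 2-fold higher in KO, and Insr the single gene at least 2-fold lower. With the probe set of highest mean linear signal, a choice made after seeing the data, Igfbp4 was also at least 2-fold higher, which makes 2. Over all 14597 measured genes 3.73% reached 2-fold on the higher side and 6.72% on the lower side, so 1 of 10 in each direction is near that background. Ratios were above 0 in 9 of the 10 genes, against 46.3% of all measured genes. The median log2 ratio was 0.22 for the 10 genes and -0.06 for all measured genes. Counted by probe set, 17 of 24 were above 0 (70.8%, against 48.9% of all measured probe sets), 5 were at least 2-fold higher (background 5.62%) and 1 at least 2-fold lower (background 6.67%). Of the 5 at least 2-fold higher, 2 belonged to Igfbp4, and 1 each to Igf1r, Irs1 and Igfbp3.

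**Figure D1:**
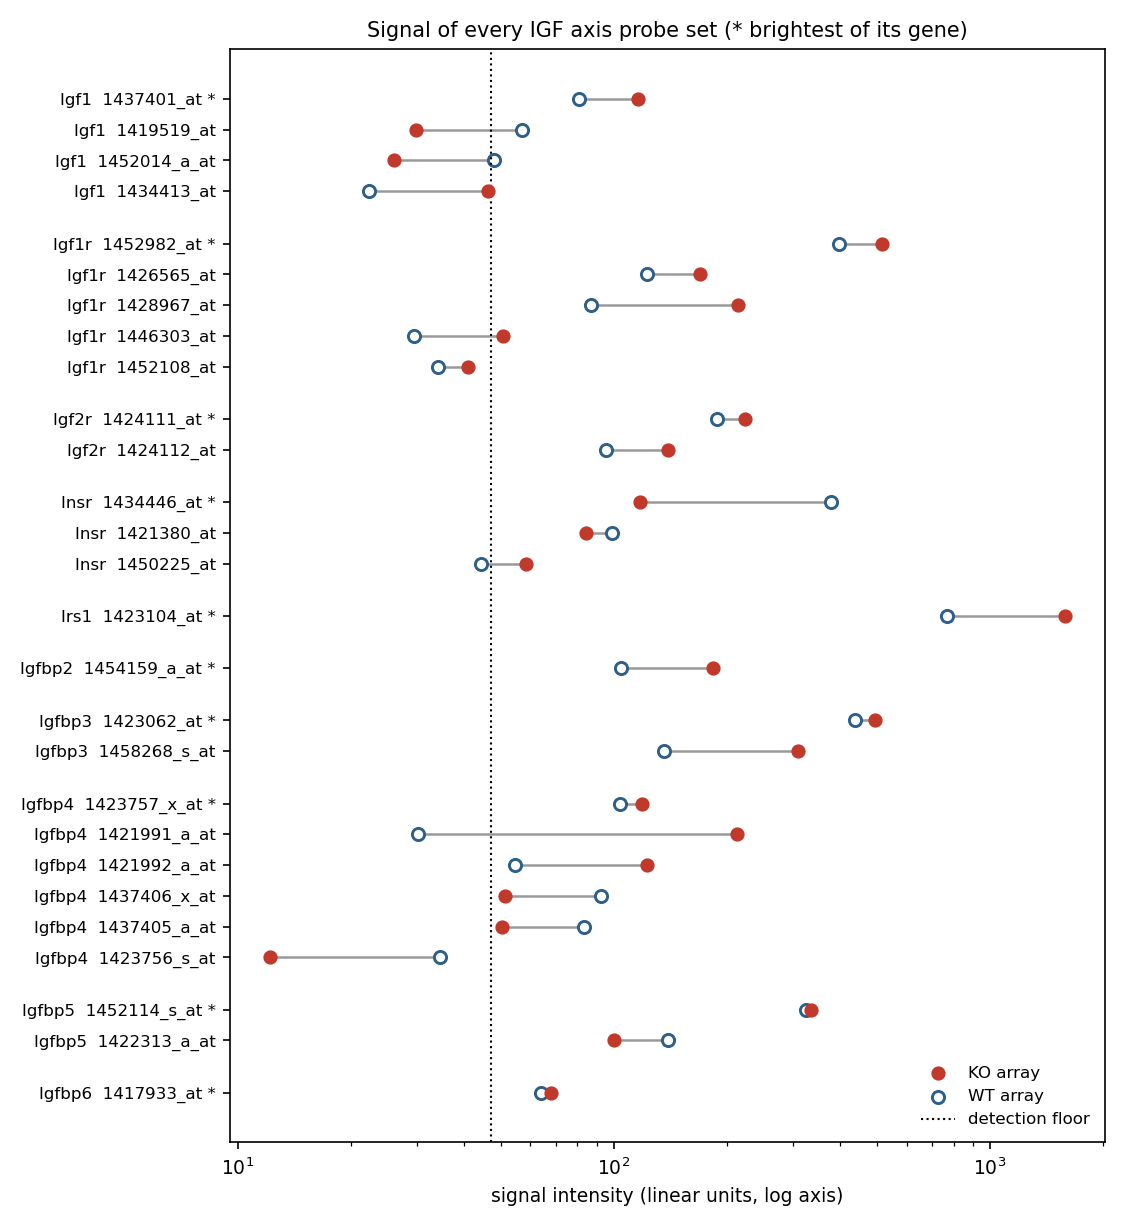
Signal intensity on a log axis of each of the 27 probe sets, by gene, on the KO array (filled) and the WT array (open), with the detection floor of 47.04 as a dotted line and an asterisk at the brightest probe set of each gene. All 5 Igf1r probe sets lie higher on the KO array, though 1452108_at is under the floor on both arrays and was not counted as measured. The probe sets of Igf1, Insr, Igfbp4 and Igfbp5 run in both directions.

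The difference between probe sets of a gene served as the only measure of spread. It leaves out the spread between cultures and animals. It is not technical spread alone, because probe sets can read different transcripts or match other genes, and bounds were included. Over 6251 genes with at least 2 measured probe sets, the pooled within-gene SD of the log2 ratios was 0.67. Only Insr and Irs1, and Igfbp2 at 0.81, had ratios of a larger size than that by their brightest probe set. Among the 7 IGF axis genes with at least 2 measured probe sets, all were above 0 in 3 (Igf1r, Igf2r and Igfbp3), all below 0 in 0, and of both signs in 4 (Igf1, Insr, Igfbp4 and Igfbp5). Across all genes with at least 2 measured probe sets these shares were 19.2%, 20.7% and 60.1%. Irs1, Igfbp2 and Igfbp6 had 1 probe set each and could not be checked this way.

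Igf1, the ligand, gave a low signal on both arrays. Its brightest probe set (1437401_at) read 116 on the KO array and 80.9 on the WT array, a log2 ratio of 0.52. A probe set made to the transcript NM_010512 (1419519_at) read 29.7 on the KO array, under the floor, and 56.85 on the WT array, and 1452014_a_at read 26.0 on KO and 47.95 on WT, at least 1.21-fold and at least 1.02-fold lower. The remaining one (1434413_at) read 46.2 on KO and 22.4 on WT, both below the floor. Igf1 therefore differed in direction between probe sets, and none of its values lay far above the floor.

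Igf1r, which encodes the signalling receptor of both IGFs, was higher in KO by every measured probe set. The brightest (1452982_at) read 516 on the KO array and 396 on the WT array, 1.30-fold higher. Probe set 1426565_at read 169 on KO and 122 on WT, a log2 ratio of 0.47. The largest difference was at 1428967_at, with 214 on KO and 87.05 on WT, 2.46-fold higher. This probe set and the brightest one were designed from the same sequence record, BB446952, and their log2 ratios were 1.30 and 0.38. A dim probe set (1446303_at) read 50.8 on KO and 29.4 on WT, at least 1.08-fold higher, and 1452108_at stayed below the floor, at 40.9 on KO and 34.1 on WT. Of 605 genes with exactly 4 measured probe sets, 9.75% had all of them above 0. The mean log2 ratio of the measured Igf1r probe sets was 0.57.

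Igf2r, the receptor that removes IGF2, was also slightly higher in KO. Its probe sets read 223 on KO against 189 on WT (1424111_at) and 139 on KO against 95.6 on WT (1424112_at), log2 ratios of 0.24 and 0.54. A further probe set (1440979_at) is annotated to both Igf2r and Airn, a noncoding RNA transcribed from the opposite strand of the Igf2r locus, and so names no single gene. It read 74.5 on KO and 66.0 on WT.

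Insr, the insulin receptor gene, was the one receptor lower in KO by its brightest probe set. That probe set (1434446_at) read 118 on the KO array and 378 on the WT array, 3.21-fold lower, and 1.12% of measured genes had a lower ratio. The other probe sets, both designed from the transcript NM_010568, did not reach such a difference. One (1421380_at) read 84.35 on KO and 98.9 on WT, a log2 ratio of -0.23, and the other (1450225_at) read 58.5 on KO and 44.3 on WT, at least 1.24-fold higher. The call rests on 1 probe set: the mean over all 3 was -0.53, under 2-fold. In the 25% of measured genes that hold Insr when ordered by mean signal, 9.59% were at least 2-fold lower in KO.

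Irs1, the adaptor of the IGF1 and insulin receptors, had the highest ratio of the 10 genes by the brightest probe sets, while single probe sets of Igf1r, Igfbp3 and Igfbp4 had higher ones. With quantile scaling Igfbp2 stood above it (0.88 against 0.81), as did Igfbp4 with the floor at the 60th percentile (1.30 against 1.04). Its single probe set (1423104_at) read 1582 on the KO array and 768 on the WT array, 2.06-fold higher (log2 ratio 1.04), and 3.35% of measured genes had a higher ratio. In the brightest 25% of measured genes, to which Irs1 belongs, 4.36% were at least 2-fold higher. The value lay just past 2-fold, and it came under 2-fold with median scaling (log2 ratio 0.9996), quantile scaling (0.81), loess scaling (0.91) and a pseudocount in place of the floor (0.9998). The 250 bases before the Irs1 start are shown because this was the gene called higher in KO. Capitals mark matches to the E-box CANNTG, a motif of basic helix-loop-helix factors, the myogenic ones among others. The match here reads CACGTG, and the form CAGCTG does not occur in this window, so the match names no single factor. The sequence is from RefSeq (GRCm38.p6, chr1:82291440-82291689, minus strand, written 5′ to 3′).
Irs1: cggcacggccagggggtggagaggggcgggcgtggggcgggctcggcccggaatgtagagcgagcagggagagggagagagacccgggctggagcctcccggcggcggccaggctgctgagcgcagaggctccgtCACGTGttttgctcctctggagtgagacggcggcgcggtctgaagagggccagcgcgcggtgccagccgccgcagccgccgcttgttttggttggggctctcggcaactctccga

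The binding proteins differed between genes and between probe sets. All 5 had brightest probe sets above 0, with log2 ratios between 0.05 and 0.81 and a median of 0.18, and 0 reached 2-fold in either direction. Of their 11 measured probe sets 3 were at least 2-fold higher in KO, 1 of Igfbp3 and 2 of Igfbp4, and 0 were at least 2-fold lower (backgrounds 5.62% and 6.67%). With the mean over measured probe sets the median of the 5 genes was 0.39. The 5 other genes had a median of 0.38 by their brightest probe sets. Igfbp2 led the binding proteins by the brightest probe sets, Igfbp3 had a second probe set past 2-fold, and Igfbp4 had probe sets well above and well below 0. Igfbp5 was nearly level by its brightest probe set and lower in KO by its other, at -0.48. Igfbp6 was nearly level.

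Igfbp2, which encodes a binding protein with a preference for IGF2, read 183 on the KO array and 105 on the WT array by its single probe set (1454159_a_at), 1.75-fold higher. Of all measured genes 6.90% had a higher ratio. The suffix _a_at marks a probe set that matches several transcripts of the same gene.

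Igfbp5, a binding protein secreted by differentiating myoblasts, was close on both arrays by its brightest probe set (1452114_s_at), at 335 on KO and 324 on WT. The other (1422313_a_at), designed from the transcript NM_010518, read 99.9 on KO and 139 on WT, a log2 ratio of -0.48. Neither reached 2-fold, and the signs differed. Of the 11 differentiated muscle markers 10 were at least 2-fold lower in KO, and the remaining one, Ckm, had a log2 ratio of -0.44. Myog, which encodes the differentiation factor myogenin, read 488 on KO and 1754 on WT, a log2 ratio of -1.85. The embryonic myosin gene Myh3 read 404 on KO and 4001 on WT, a log2 ratio of -3.31. Acta1, the skeletal actin gene, had a log2 ratio of -1.84 and Myod1, a determination factor, one of 1.47. The log2 ratios of Igfbp5, 0.05 and -0.48 with a mean of -0.21, were not of the size of those of Myog, Myh3 and Acta1. That of Ckm lay near the -0.48. With 1 array per group these differences were not tested. A suffix of _s_at means that the probes can match transcripts of more than 1 gene.

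Igfbp2 and Igfbp5 are next to each other on chromosome 1, with 0 protein-coding genes between them in the RefSeq gene order. Their log2 ratios were 0.81 and 0.05. Igfbp2 has 1 probe set, the Igfbp5 probe sets differed by 0.53, and the pooled within-gene SD was 0.67. Whether the 2 genes differ in their ratios was not tested. The 250 bases before their starts are shown for this pair of neighbours, from RefSeq (GRCm38.p6), with E-box matches in capitals. The Igfbp2 window lies at chr1:72824230-72824479, plus strand, the first of 2 listed starts. The Igfbp5 window lies at chr1:72874866-72875115, minus strand.
Igfbp2: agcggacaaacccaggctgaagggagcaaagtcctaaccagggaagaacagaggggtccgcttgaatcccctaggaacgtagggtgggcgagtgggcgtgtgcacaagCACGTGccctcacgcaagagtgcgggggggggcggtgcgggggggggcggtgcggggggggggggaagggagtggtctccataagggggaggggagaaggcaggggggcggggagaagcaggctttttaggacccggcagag
Igfbp5: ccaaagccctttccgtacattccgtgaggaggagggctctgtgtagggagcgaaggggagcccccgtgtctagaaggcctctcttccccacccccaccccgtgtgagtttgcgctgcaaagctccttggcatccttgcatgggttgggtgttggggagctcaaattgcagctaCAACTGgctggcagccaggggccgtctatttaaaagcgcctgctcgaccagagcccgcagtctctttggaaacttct

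Promoter windows were found for 9 of the 10 genes, 10 windows in all. The E-box CANNTG, searched on both strands, occurred in 9 of the 10 windows and in 66.2% of all 32851 RefSeq windows of the same length. The form CAGCTG occurred in 1, that of Igf1, and in 13.0% of all windows. A core forkhead motif, TGTTTAC or its complement GTAAACA, occurred in 0 of the 10 and in 3.17% of all windows. The Igf1r window held 77.6% G and C, that of Irs1 72.4% and that of Igfbp6 49.6%, against a median of 52.4% over all windows. These matches describe the letters and show no binding.

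Igfbp3, the main IGF carrier in serum, was slightly above 0 by its brightest probe set (1423062_at), at 495 on KO and 438 on WT, 1.13-fold higher. Its other probe set (1458268_s_at) read 309.5 on KO and 136 on WT, 2.28-fold higher. By its suffix, the probes of this one can match transcripts of more than 1 gene. Both probe sets lay above 0, and they differed from each other by 1.01 in log2 ratio.

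Igfbp4, whose protein inhibits IGF action and is cut by the protease pregnancy-associated plasma protein A, had the widest spread of the 10 genes. Of its 6 probe sets, the one with the highest mean log2 value (1423757_x_at) read 119 on KO and 104 on WT, 1.14-fold higher. Both probe sets designed from the transcript NM_010517 were higher in KO: 1421991_a_at read 213 on KO and 30.2, under the floor, on WT, at least 4.52-fold higher, and is the one with the highest mean linear signal, and 1421992_a_at read 123 on KO and 54.7 on WT, 2.25-fold higher. Both designed from the record BB787243 were lower: 1437406_x_at read 51.5 on KO and 92.4 on WT, and 1437405_a_at read 50.6 on KO and 83.1 on WT, log2 ratios of -0.84 and -0.72. The last (1423756_s_at), from the same record as 1423757_x_at, read 12.2 on KO and 34.6 on WT, both below the floor. The measured log2 ratios of the gene spanned 3.02. Of the 6, 3 end in _a_at, 1 in _s_at and 2 in _x_at, the last a mark of probes that can also match unrelated sequences.

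Igfbp6, a binding protein with a strong preference for IGF2, was close to the floor, at 68.0 on KO and 64.2 on WT (1417933_at, log2 ratio 0.08). Igfbp1, the neighbour of Igfbp3 on chromosome 11 with 0 protein-coding genes between them, was under the floor on both arrays, at 26.8 on KO and 3.92 on WT, and the IGFBP-related gene Igfbp7 read 103 on KO and 95.7 on WT. Igfbp7 was named after its value was seen.

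**Figure D2:**
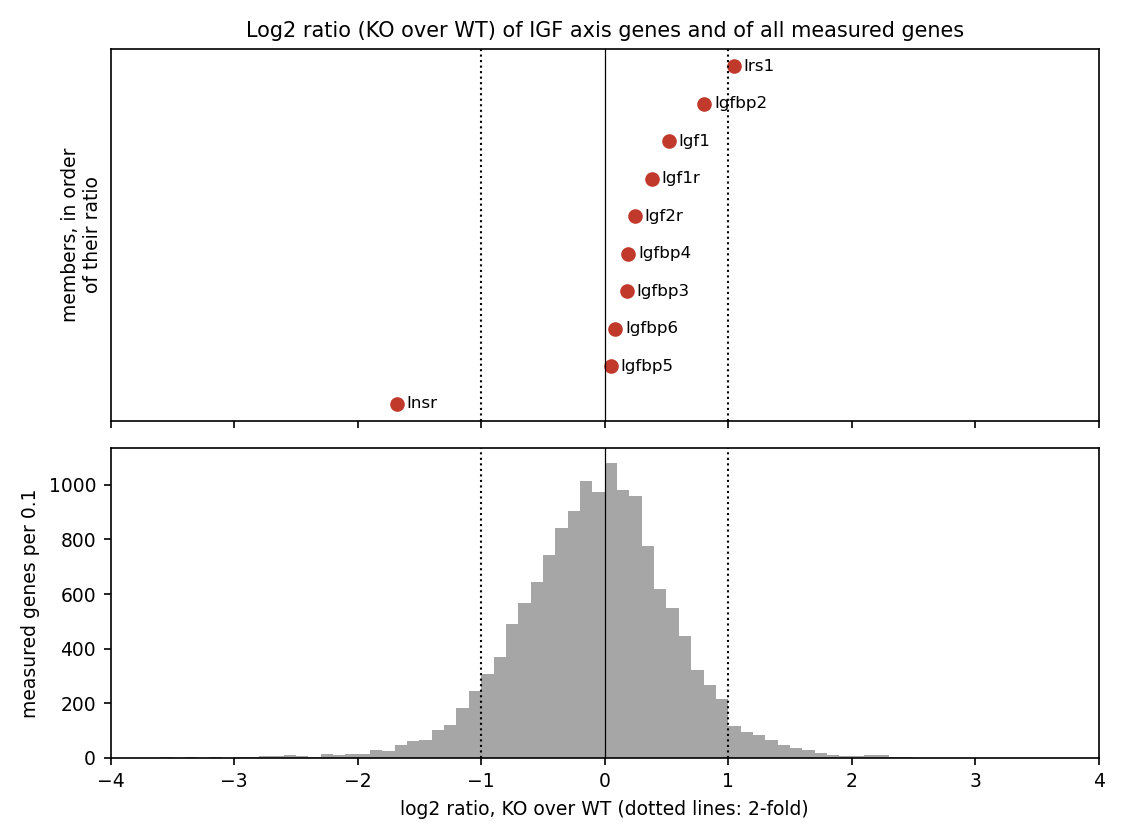
Log2 ratio of KO over WT for the brightest probe set of each of the 10 IGF axis genes (top, in order of ratio) and for all 14597 measured genes (bottom, in bins of 0.1, with the few genes beyond 4 in either direction outside the axis). The dotted lines mark 2-fold; Irs1 at 1.04 and Insr at -1.68 lie past them, and the others lie between 0.05 and 0.81.

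The other genes of the pathway fell on both sides of 0. Of 67 listed genes 58 were matched and 56 measured, and the other 9 were not analysed here. Ratios were above 0 in 29 of the 56 and below 0 in 27, and the median was 0.01. At least 2-fold higher were 4 (background 3.73%) and at least 2-fold lower 2 (background 6.72%). By role, the median was 0.31 for Igf2 and genes of IGF binding and uptake (11 measured), -0.22 for adaptors and inhibitors at the receptor (13), -0.32 for the PI3K, AKT and FOXO genes (18), 0.28 for the mTOR genes (11) and -0.24 for the RAS and ERK genes (3).

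Igf2, the ligand of the embryo and of differentiating myoblasts, read 4199 on KO and 2524 on WT by its brightest probe set, 1.66-fold higher. Its other probe set read 58.1 on KO and 65.7 on WT. Grb10, an adaptor that inhibits IGF1 and insulin receptor signalling, was at least 2-fold higher in KO by all 3 probe sets, at 2115 on KO and 1036 on WT, 148 on KO and 64.1 on WT, and 133 on KO against 34.3, under the floor, on WT. Their folds were 2.04, 2.31 and at least 2.83. Socs3, a feedback inhibitor of cytokine receptors that also binds the insulin receptor, read 147 on KO and 51.9 on WT, 2.82-fold higher, with its other probe sets at 0.31 (a bound) and -0.16 in log2 ratio. Irs2, the other main IRS adaptor, was just over the floor on KO at 47.5 and under it on WT at 22.8, so no difference could be read. Pappa, which encodes the IGFBP4 protease and was named after its values were seen, read 136 on KO and 72.3 on WT, with all 3 probe sets above 0.

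Downstream, the translation factor Eif4e read 1136 on KO and 358 on WT by its brightest probe set, 3.17-fold higher, while its 3 other probe sets were below 0, 1 of them 2.14-fold lower. Mlst8, a subunit of both mTOR complexes, read 284 on KO and 97.8 on WT, 2.90-fold higher, and its other probe set, at 36.5 on KO and 48.8 on WT, was at least 1.04-fold lower. Tsc1, a brake on mTOR, read 80.1 on KO and 174 on WT, 2.18-fold lower by its single measured probe set. Sgk1, a kinase activated downstream of PI3K, read 58.8 on KO and 168 on WT, 2.86-fold lower by its single probe set. Of these 6 called pathway genes, Grb10 alone had 2 or more measured probe sets that all ran the same way. Its brightest probe set lay just past 2-fold, at a log2 ratio of 1.03, the smallest of the 4 called higher. With median scaling 3 pathway genes were called higher in place of 4, and Grb10 was not among them. With the pseudocount 2 were called higher. All 3 Grb10 probe sets end in _a_at, so Grb10 was not measured in the alternative without such probe sets.

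**Figure D3:**
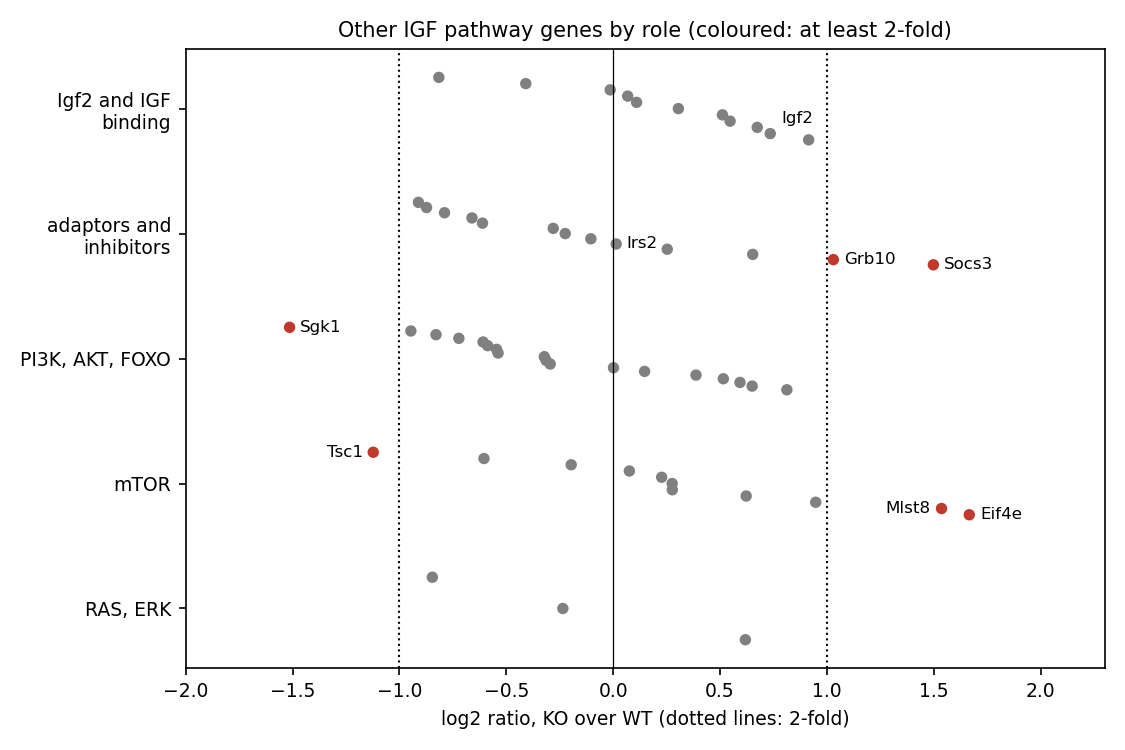
Log2 ratio of KO over WT for the brightest probe set of each of the 56 measured pathway genes other than the 10, in rows by role, with genes at least 2-fold different coloured and named, beside Igf2 and Irs2 (dotted lines mark 2-fold). Socs3, Grb10, Mlst8 and Eif4e lie beyond 2-fold on the higher side and Sgk1 and Tsc1 on the lower side, and the rest fall on both sides of 0.

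Under the processing alternatives 1 of the 10 genes, Igfbp5, changed the sign of its ratio. Across 10 alternatives that change a ratio, the log2 ratios of Igf1r ran from 0.34 to 0.57, those of Igf2r from 0.20 to 0.39 and those of Irs1 from 0.81 to 1.04. Insr ranged from -1.73 to -0.53 and was at least 2-fold lower in 9 of the 10. Igfbp5 ran from -0.21, with the mean over probe sets, to 0.18. Igfbp4 reached 1.30 with the floor at the 60th percentile, and 2.18 with the probe set of highest mean linear signal; in both, another of its probe sets (1421991_a_at) stood for the gene.

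**Figure D4:**
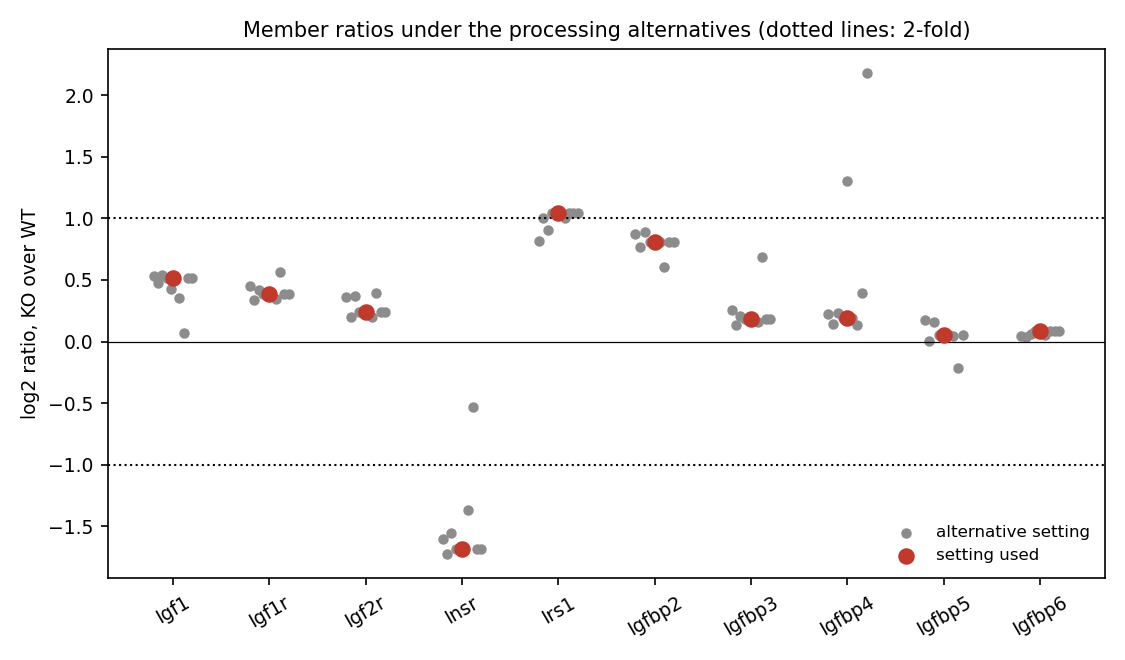
Log2 ratio of KO over WT of each of the 10 IGF axis genes as reported (large points) and under each processing alternative that gives a value (small points), with dotted lines at 2-fold. Insr stays below 0 and the genes other than Igfbp5 and Insr stay above 0, with Igfbp4 at 1.30 and 2.18 and Insr at -0.53 as the points farthest from the rest.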

How the data were processed

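Per the labels' protocols, total RNA of 1 KO and 1 WT culture was labelled with biotin as cRNA and hybridised to 1 array each. The authors deposited a linear intensity for each probe set on each array; how they summarised and scaled the probes is not given in the sources used here. Trimmed means (2% at each end) were 126 on both arrays, so values were used as deposited. Columns without a sample numbered 0.

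The platform annotation named the probe sets, with symbols updated by Entrez identifier in a RefSeq table (GRCm38.p6). Of 45037 probe sets 34945 had 1 symbol, 932 several and 9160 none, and 34741 matched the table. Coordinates of the array's own build were not used. Ratios were computed with Python 3.11.15 and pandas 2.3.3, and loess (span 0.3) with statsmodels 0.14.6. A simulated KO array, with known ratios planted only in genes far over the floor on WT, was used to check the calculation. It did not cover genes near the floor.

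With 1 array per group no test or p-value was possible; the threshold was 2-fold. The 10 genes, the pathway list, the marker lists and the naming rule (every probe set of the 10; Igf2, Irs2, Grb10; up to 8 other pathway genes past 2-fold; Myod1, Myog, Myh3, Acta1 and Foxj3) were chosen with earlier results of these data known. There were 12 alternatives: 3 scalings, floors at the 20th and 60th percentiles and none, a pseudocount, the mean over measured probe sets, no _s_at, _x_at or _a_at probe sets, thresholds of 1.5-fold and 3-fold, and calls only where probe sets share a sign. The choice of probe set by mean linear signal was 1 more, added after seeing the data. The number of arrays limits the precision.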

Additional observations from a re-analysis of the deposited data

How the results depend on the processing

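No paired analysis was possible because each group has 1 array. The median log2 ratio of the 10 genes stayed between 0.17 and 0.39, and that of the other pathway genes between -0.10 and 0.07, of either sign, under the 10 alternatives that change a ratio. The number of the 10 genes at least 2-fold higher in KO, 1 as reported, was 0 with quantile, median and loess scaling, with the pseudocount and at 3-fold, and 2 with the floor at the 60th percentile and with the probe set of highest mean linear signal, chosen after seeing the data (Igfbp4 and Irs1 in both), and at 1.5-fold (Igfbp2 and Irs1). The number at least 2-fold lower, 1 as reported, was 0 with the mean over probe sets and where all other probe sets had to share the sign. Other pathway genes at least 2-fold higher, 4 as reported, numbered 7 without a floor and 14 at 1.5-fold. They numbered 5 with the floor at the 20th percentile and without _s_at, _x_at and _a_at probe sets. With median scaling and with the floor at the 60th percentile they numbered 3, and with the pseudocount 2. They numbered 1 with the mean over probe sets, at 3-fold and with the shared sign. Other pathway genes at least 2-fold lower, 2 as reported, numbered 1 with the floor at the 60th percentile and with the pseudocount. They numbered 3 with the mean over probe sets, 15 at 1.5-fold and 0 at 3-fold. Thresholds and sign rules change counts by construction; the cause of the other shifts was not tested. Over all measured genes the split of 544 higher and 981 lower became 594 and 843 with quantile scaling, 603 and 833 with loess, 491 and 1101 with median scaling, 313 and 485 with the pseudocount and 1567 and 1873 without a floor. Without _s_at, _x_at and _a_at probe sets Igfbp2, Igfbp4 and Igfbp5 could not be measured. Igf1, Igfbp6 and several dim probe sets lie near the floor of 47.04, which limits what their ratios can show.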
